A study of Homo sapiens with 15 samples.

Results

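Squamous cell carcinoma and adenocarcinoma are the main histological subtypes of non-small-cell lung cancer (NSCLC), and the established lines of each were compared here in their untreated state. The squamous group held 3 lines, Calu1, H226 and H520, and the adenocarcinoma group held 9 lines, A549, Calu3, HCC827 (written HC827 in the labels), H3122, H2228, H2009, H1975, H1781 and H1650. These 12 lines are the members of the comparison out of 15 lines in the series, and histology was taken from the study's description of its lines, since the labels name only NSCLC. The 2 bronchioloalveolar lines (H1437 and H358) and the large cell line (H460) were left out. All lines were human and were grown without treatment. Each line has 1 array, so a line is the replicate, and p-values measure the spread between lines of different origin and not between cultures of a line. Radiation class goes with histology in this panel. All 3 squamous lines were classed as radiosensitive by the study, whereas 3 adenocarcinoma lines (Calu3, H1781 and H2009) were radiosensitive and the other 6 radioresistant.

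Squamous carcinoma resembles the stratified epithelium that grows from basal cells: it is recognised by the transcription factors p63 and SOX2, by basal keratins such as keratin 5, by desmosomes and by proteins of the cornified layer. Lung adenocarcinoma resembles the glandular and alveolar epithelium and is recognised by the transcription factor NKX2-1 (TTF-1), by simple keratins such as keratin 7 and by surfactant proteins and mucins. Both are epithelial tumours, whose cells are joined by E-cadherin, and carcinoma cells that lose E-cadherin for N-cadherin under factors such as ZEB1 are described as having undergone an epithelial-mesenchymal transition.

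Values are RMA log2 signals on the Affymetrix PrimeView array, where a difference of 1 is a doubling, and each gene is given by its single-gene probe set of highest mean. Median signals lay between 5.87 and 5.93 in the 3 squamous lines and between 5.89 and 5.93 in the 9 adenocarcinoma lines. RMA forces the arrays to 1 common distribution, so this likeness is no sign of array quality. H520 had the highest lower quartile (4.33) and the lowest upper quartile (7.75) of the 15 arrays. The excess of the 3′ over the 5′ actin control probes, a sign of RNA integrity, lay between 0.65 and 1.30 in squamous lines and between 0.63 and 2.09 in adenocarcinoma lines, where H1781 and H3122 were highest. Markers of blood and endothelial cells (9 measured) had a median difference of -0.03, and PTPRC, the pan-leukocyte marker, lay between 3.09 and 3.33 in squamous lines and between 2.96 and 3.45 in adenocarcinoma lines. A line is measured in bulk, so that fewer cells with a transcript and less transcript per cell cannot be told apart.

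The defining markers did not separate the groups. KRT5, the basal keratin, had signals of 5.63 in Calu1, 8.66 in H226 and 6.12 in H520, against 5.37 to 5.76 (median 5.64) in adenocarcinoma lines. At the other probe set of the gene only H226 (6.82) lay above the adenocarcinoma lines (3.21 to 3.59), with H520 at 3.32 and Calu1 at 3.14. At the probe set used here, KRT5 stood above every adenocarcinoma line in H226 and H520, and inside their range in Calu1. The squamous mean of 6.80 ± 1.63 (SD, n = 3) exceeded the adenocarcinoma mean of 5.58 ± 0.14 (SD, n = 9) by 1.23 ± 0.46 (SE; limma adjusted p = 0.472), a difference that was 0.30 without H226. SOX2 had signals of 4.47 in Calu1, 4.35 in H226 and 13.07 in H520, against 3.94 to 11.78 (median 7.07) in adenocarcinoma lines. It was the highest of all 12 lines in H520 and near the bottom of the range in Calu1 and H226. NKX2-1 had signals of 8.95 in Calu1, 3.70 in H226 and 6.29 in H520, against 3.84 to 11.00 (median 10.04) in adenocarcinoma lines. It was low in A549, Calu3 and H1650, between 3.84 and 4.31, so that the marker of adenocarcinoma was higher in Calu1 and H520 than in these 3 adenocarcinoma lines. TP63 was not analysed here. On these markers the name squamous held at most in part. KRT5 was raised in H226, but it is also among the mesothelial markers described below. SOX2 was highest in H520, but also high in the adenocarcinoma lines H1781 (11.78), H3122 (11.06) and H2009 (10.72). The group is called by its lines' histology in what follows.

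**Figure D1:**
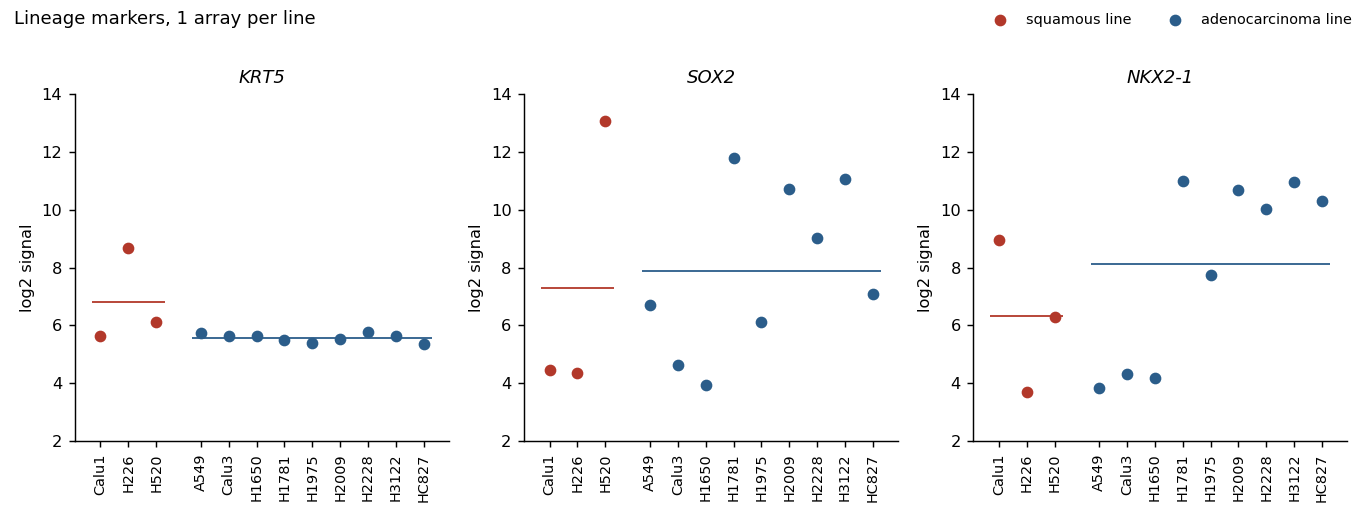
Signal (log2) of KRT5, SOX2 and NKX2-1 in each line, with squamous lines in red on the left and adenocarcinoma lines in blue on the right, 1 array per line and group means as horizontal lines. KRT5 is raised in H226 (8.66), SOX2 is highest in H520 (13.07), and NKX2-1 spans 3.70 to 8.95 in squamous lines and 3.84 to 11.00 in adenocarcinoma lines.

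To ask which genes separated the histologies, all 18132 genes were tested with limma. No gene (0%) had an adjusted p under 0.05, and the lowest adjusted p was 0.0849. An unadjusted p under 0.05 was found for 1578 genes, where 907 would be expected without any difference, and the methods' t-test, after Benjamini-Hochberg adjustment, called 1 gene (FAM184B), while its permutation form called 0. With 220 arrangements the permutation form gives no p under 0.00455, so adjustment over 18132 genes left it little room to call any. Without H520, limma called 27 genes higher and 3 lower, without Calu1 10 higher and 8 lower, and without H226 13 higher and 4 lower. The nominal threshold, a log2 difference over 1 in either direction with an unadjusted limma value under 0.05, is taken from the study, which states its cutoff once with an unadjusted and once with an adjusted p. Past it 264 genes were higher (1.46%) and 404 lower (2.23%) in squamous lines. All squamous values lay above all adenocarcinoma values for 139 genes (0.767%) and below them for 149 genes (0.822%). The median difference over all genes was 0.01, and 51.3% of all genes had a higher and 48.7% a lower mean in squamous lines. Since no gene passed the adjusted threshold, genes are given below as values, and "past the nominal threshold" describes size and unadjusted p only.

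An adjusted p under 0.1 was found for 8 genes, 3 higher and 5 lower in squamous lines. Those higher were CDH2 (N-cadherin), PTX3 (a secreted pattern recognition protein) and MARCHF1 (a ubiquitin ligase). Those lower were RPP25 (a subunit of ribonuclease P), TMC5 (a transmembrane channel-like protein), GPD2 (the mitochondrial glycerol-3-phosphate dehydrogenase), PWWP2B and PHF5A (a splicing factor subunit). PHF5A differed by -0.84 only and therefore did not pass the nominal threshold.

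Agreement of the 3 squamous lines was rare. Of all genes, 2 exceeded the highest adenocarcinoma line by more than 1 in every squamous line (CDH2 and PTX3), and 5 lay below the lowest adenocarcinoma line by more than 1 in every squamous line (CDH1, FRK, RIPK4, RPP25 and TMC5). In exactly 2 squamous lines there were 74 genes above and 66 below, and in exactly 1 there were 727 above and 505 below.

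CDH2 encodes N-cadherin, the adhesion molecule of neural and mesenchymal cells, and had signals of 11.00 in Calu1, 11.97 in H226 and 11.26 in H520, against 5.47 to 8.23 (median 5.90) in adenocarcinoma lines. The squamous lines lay close together, with no overlap. The mean was 11.41 ± 0.50 in squamous lines and 6.55 ± 1.08 in adenocarcinoma lines, a difference of 4.86 ± 0.62 (SE; limma adjusted p = 0.0849). The other probe set of the gene differed by 5.24. CDH1, which encodes E-cadherin, had signals of 4.33 in Calu1, 3.49 in H226 and 6.95 in H520, against 8.10 to 12.91 (median 11.85) in adenocarcinoma lines. Every squamous line was below H1975, the lowest adenocarcinoma line, and H520 was the nearest to it. The difference was -6.39 ± 1.04 (limma adjusted p = 0.101), the largest decrease of all genes, with -2.70 at the other probe set of the gene, where the squamous lines (4.37 to 4.69) lay less than 1 below H1975 at 5.12.

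PTX3 had signals of 9.81 in Calu1, 9.77 in H226 and 10.04 in H520, against 3.20 to 7.68 (median 3.60) in adenocarcinoma lines. The spread among squamous lines was 0.15 (SD), and H1650 was the one adenocarcinoma line within 3 of them. Its difference of 5.62 ± 0.82 was the largest increase among all genes (limma adjusted p = 0.0855). RPP25 had signals of 4.59 in Calu1, 5.29 in H226 and 4.82 in H520, against 6.67 to 8.50 (median 7.91) in adenocarcinoma lines, with a difference of -2.85 ± 0.38 (limma adjusted p = 0.0849). TMC5 had signals of 5.15 in Calu1, 5.13 in H226 and 5.33 in H520, against 6.88 to 9.94 (median 8.32) in adenocarcinoma lines. Both were uniformly low in squamous lines, and TMC5 came nearest to them in A549. FRK, a non-receptor tyrosine kinase of epithelial cells, had signals of 3.60 in Calu1, 3.17 in H226 and 3.80 in H520, against 4.94 to 6.95 (median 6.07) in adenocarcinoma lines. RIPK4, a kinase needed for the differentiation of keratinocytes, had signals of 6.76 in Calu1, 4.41 in H226 and 6.56 in H520, against 8.09 to 9.90 (median 8.78) in adenocarcinoma lines. A regulator of stratified epithelium was thus lower in every squamous line. For FRK and RIPK4, as for CDH1, the distance of more than 1 was not met when all probe sets of a gene were averaged, since a probe set of RIPK4 differed by -0.59 and a probe set of FRK by -1.52, and CDH2 and PTX3 above and RPP25 and TMC5 below then remained.

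**Figure D2:**
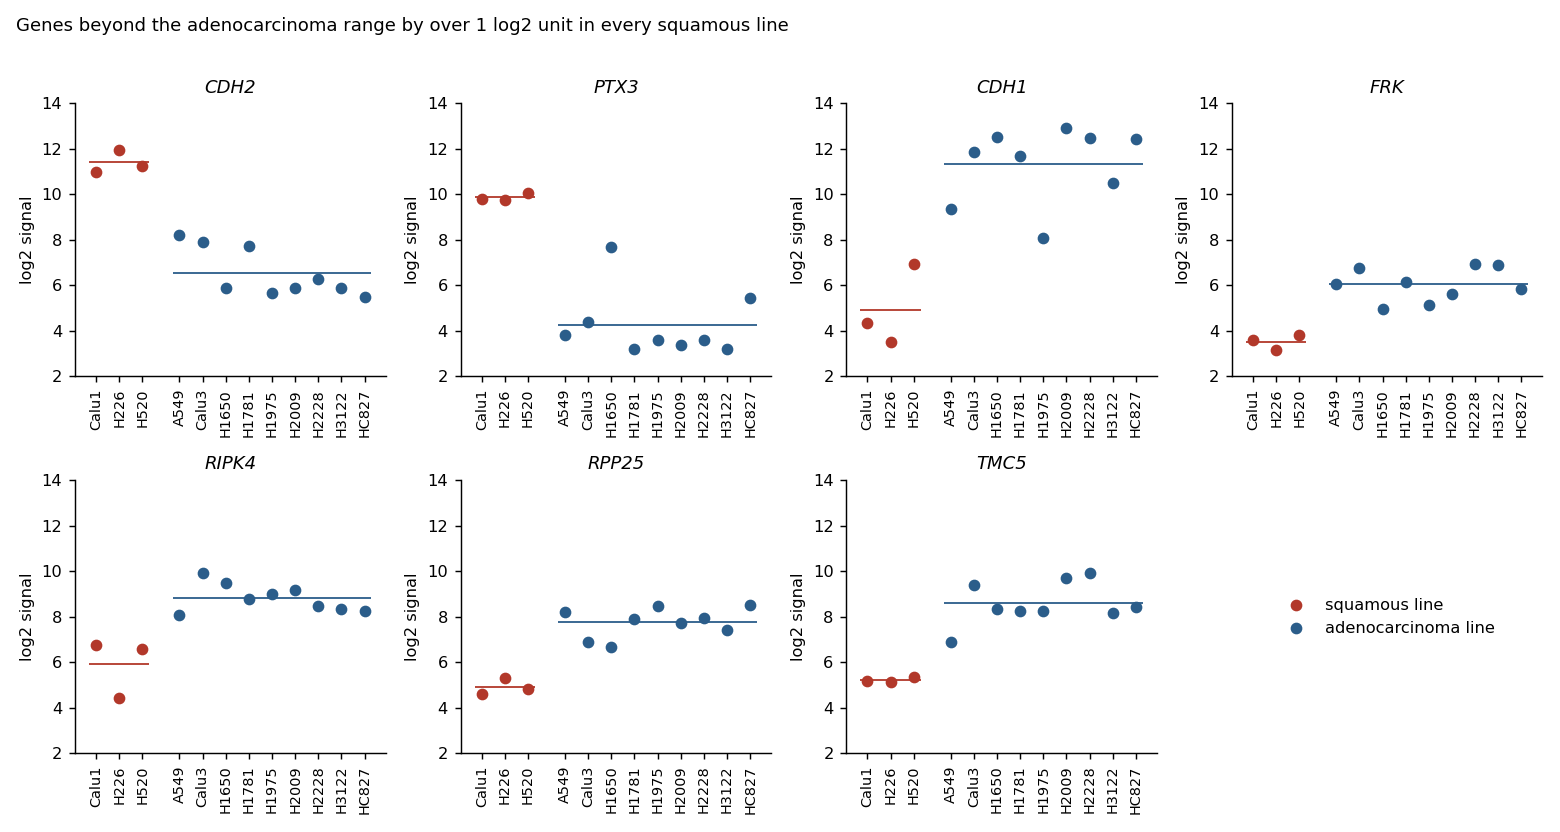
Signal (log2) by line of the 7 genes that lay beyond the adenocarcinoma range by more than 1 in every squamous line (red, left), with adenocarcinoma lines in blue on the right and group means as horizontal lines, 1 array per line. CDH2 lies between 11.00 and 11.97 in squamous lines and between 5.47 and 8.23 in adenocarcinoma lines, and CDH1 lies between 3.49 and 6.95 in squamous lines and between 8.10 and 12.91 in adenocarcinoma lines.

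Lower CDH1 was part of a broader pattern in genes of epithelial junctions. Of 22 measured genes of epithelial junctions, 21 had a lower mean in squamous lines, 7 of them past the nominal threshold (31.8%, against 2.23% of all genes) and 0 were higher past it. The median difference was -1.74, against 0.01 over all genes. CDH1 itself is among the 7. This list and the others below were chosen with earlier results of these data known, so their shares are descriptions and not tests. RAB25, a small GTPase of epithelial membrane recycling, had signals of 4.20 in Calu1, 4.42 in H226 and 4.40 in H520, against 5.40 to 11.26 (median 9.92) in adenocarcinoma lines. The groups did not overlap, although H1975 (5.40) and A549 (5.43) came close to the squamous lines, and the difference was -4.82 ± 1.24 (limma adjusted p = 0.296). CDH3, which encodes P-cadherin, had signals of 5.55 in Calu1, 6.10 in H226 and 6.08 in H520, against 5.20 to 13.22 (median 10.68) in adenocarcinoma lines. All 3 squamous lines were low and only A549 was lower. EPCAM, an adhesion molecule used to recognise carcinoma cells, had signals of 7.58 in Calu1, 4.03 in H226 and 13.05 in H520, against 8.51 to 13.05 (median 12.61) in adenocarcinoma lines. H520 was at the top of the adenocarcinoma range, while Calu1 and H226 were below it, so that the difference was -3.71 with all lines, -6.13 without H520 and -1.62 without H226. CGN, the tight junction protein cingulin, differed by -2.59, MYO5B, a motor of apical transport, by -1.97, and CLDN4, a claudin of tight junctions, by -1.59. Occludin (OCLN), at -0.91, did not pass the nominal threshold.

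Genes of the list called epithelial regulators here also had lower means. The list holds transcription factors of epithelial cells and also other genes, such as enzymes and a receptor kinase. All 24 measured genes had a lower mean in squamous lines, 10 of them past the nominal threshold (41.7%, against 2.23% of all genes), with a median difference of -1.91. ELF3, an ETS factor of epithelial cells, had signals of 7.38 in Calu1, 5.34 in H226 and 7.91 in H520, against 7.77 to 12.07 (median 10.58) in adenocarcinoma lines. It was lower in all 3 than in every adenocarcinoma line except H1975, which H520 exceeded, and the difference was -3.78 ± 0.82 (limma adjusted p = 0.243). GRHL2, a grainyhead-like factor that activates CDH1, had signals of 5.15 in Calu1, 4.52 in H226 and 5.11 in H520, against 5.09 to 8.40 (median 7.57) in adenocarcinoma lines. The overlap with adenocarcinoma was through A549 alone. Further genes past the nominal threshold were GRHL1 (-2.90), OVOL2, a repressor of ZEB1 (-1.34), LAD1, a filament-anchoring protein (-1.65), GALNT3, an enzyme of mucin-type glycosylation (-3.03), SPINT2, a protease inhibitor (-3.16), CDS1, an enzyme of phospholipid synthesis (-2.39), MST1R, a receptor kinase (-1.57), and SH2D3A, an adaptor protein (-1.57). ESRP1, a splicing factor of epithelial cells, had signals of 3.62 in Calu1, 3.68 in H226 and 11.18 in H520, against 3.92 to 11.68 (median 10.60) in adenocarcinoma lines. It was low in Calu1 and H226 and also in A549 and H1975, while H520 lay among the other adenocarcinoma lines.

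ZEB1 binds E-box sequences (letters CACCTG, or CAGGTG on the opposite strand) in promoters of epithelial genes. The promoter windows of RefSeq (GRCh38.p14, 250 bases before to 50 after the start) were searched for these letters. ZEB1, described below, had a higher mean in squamous lines but overlapped between the groups. Of 20403 windows of 14425 measured genes, 19.7% held a match. Of the 19 windows found for 16 of 22 junction genes 10 held one (52.6%), as did 10 of 18 windows for 13 of 24 regulators (55.6%) and 8 of 60 windows for 35 of 52 mesenchymal genes (13.3%). Of the 17 junction and regulator genes past the nominal threshold, 11 had a window and 7 a match. The 19.7% above counts windows, of which a gene can have several, so these counts of genes have no background here. CGN, CLDN4, GRHL1 and SH2D3A had a window without a match, and CDH1 had no window. A match describes letters and is not evidence of binding, and a part of ZEB1 in these differences was not tested. The windows of 4 genes with a match, all past the nominal threshold and lower in squamous lines, are printed 5′ to 3′ on the strand of the gene, with the E-box letters in capitals. RAB25 (chr1:156060910-156061209, plus strand) has matches that begin at -41 and at 38, counted in bases from the start site with negative positions before it. LAD1 (chr1:201399275-201399574, minus strand) has matches at -61 and -35, ELF3 (chr1:202010337-202010636, plus strand) has 1 match at -120, and GALNT3 (chr2:165794198-165794497, minus strand) has matches at -93 and 5.
RAB25: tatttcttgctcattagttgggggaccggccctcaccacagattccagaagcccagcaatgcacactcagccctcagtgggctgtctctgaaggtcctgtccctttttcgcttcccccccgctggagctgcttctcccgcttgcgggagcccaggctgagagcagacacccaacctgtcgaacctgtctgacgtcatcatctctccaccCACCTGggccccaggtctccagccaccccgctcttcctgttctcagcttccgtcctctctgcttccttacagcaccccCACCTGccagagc
LAD1: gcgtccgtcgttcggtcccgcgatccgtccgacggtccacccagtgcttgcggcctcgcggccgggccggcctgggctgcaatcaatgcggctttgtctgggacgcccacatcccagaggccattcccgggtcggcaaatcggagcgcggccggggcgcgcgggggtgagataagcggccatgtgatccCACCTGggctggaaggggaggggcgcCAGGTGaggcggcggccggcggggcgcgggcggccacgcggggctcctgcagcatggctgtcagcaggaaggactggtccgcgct
ELF3: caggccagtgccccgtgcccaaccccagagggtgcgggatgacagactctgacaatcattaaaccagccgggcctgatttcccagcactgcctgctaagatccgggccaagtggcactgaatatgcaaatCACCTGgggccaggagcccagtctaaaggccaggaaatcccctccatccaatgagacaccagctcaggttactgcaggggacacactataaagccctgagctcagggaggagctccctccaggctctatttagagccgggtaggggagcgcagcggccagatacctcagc
GALNT3: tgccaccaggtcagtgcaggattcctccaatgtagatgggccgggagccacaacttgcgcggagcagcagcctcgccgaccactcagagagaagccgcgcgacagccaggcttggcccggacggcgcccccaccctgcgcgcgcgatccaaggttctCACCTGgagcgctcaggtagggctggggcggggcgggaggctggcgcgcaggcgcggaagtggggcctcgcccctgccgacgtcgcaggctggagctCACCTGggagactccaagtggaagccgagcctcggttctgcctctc

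Genes of the mesenchymal list went the other way, but in Calu1 and H226 more than in H520. Of 52 measured genes, 42 had a higher mean in squamous lines, 8 past the nominal threshold (15.4%, against 1.46% of all genes), 0 were lower past it, and the median difference was 0.86. ZEB1, a repressor of CDH1, had signals of 8.78 in Calu1, 8.52 in H226 and 7.94 in H520, against 3.56 to 8.19 (median 4.69) in adenocarcinoma lines. H1975 (8.19) and A549 (7.93) reached the level of H520 and the other 7 adenocarcinoma lines did not exceed 5.82. The difference was 3.18 ± 0.98 (limma adjusted p = 0.376). SPARC, a secreted matrix protein, had signals of 10.06 in Calu1, 11.78 in H226 and 6.22 in H520, against 5.49 to 8.74 (median 6.16) in adenocarcinoma lines. FBN1, the microfibril protein fibrillin-1, had signals of 11.25 in Calu1, 10.66 in H226 and 6.76 in H520, against 5.25 to 9.08 (median 5.54) in adenocarcinoma lines. For both, Calu1 and H226 lay above every adenocarcinoma line and H520 lay among them. TWIST2, a transcription factor of mesenchymal cells, had a difference of 2.39, THY1, a surface protein of fibroblasts, 2.30, COL1A1, a chain of type I collagen, 2.21, and POSTN, the matrix protein periostin, 1.84. VIM, which encodes vimentin, had signals of 14.27 in Calu1, 13.43 in H226 and 12.54 in H520, against 3.48 to 13.96 (median 10.08) in adenocarcinoma lines, and its difference of 3.31 did not pass the nominal threshold (exact permutation p = 0.182, two-sided), and the adenocarcinoma lines spread over most of the scale. Without H520 the median over the list was 1.87, without Calu1 it was 0.23 and without H226 it was 0.24.

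Individual lines did not fall cleanly by histology on these lists. The median deviation of the 22 junction genes from their adenocarcinoma means was -2.54 in Calu1, -1.50 in H226 and -0.54 in H520, against -1.83 (A549) to 0.82 (HCC827) in adenocarcinoma lines, with H1975 at -1.21. For mesenchymal genes it was 1.92 in Calu1, 1.70 in H226 and -0.26 in H520, against -0.75 (H1781) to 0.59 (H2228) in adenocarcinoma lines. Thus Calu1 and H226 exceeded all adenocarcinoma lines in mesenchymal genes, H520 did not, and in junction genes A549 was below H226.

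**Figure D3:**
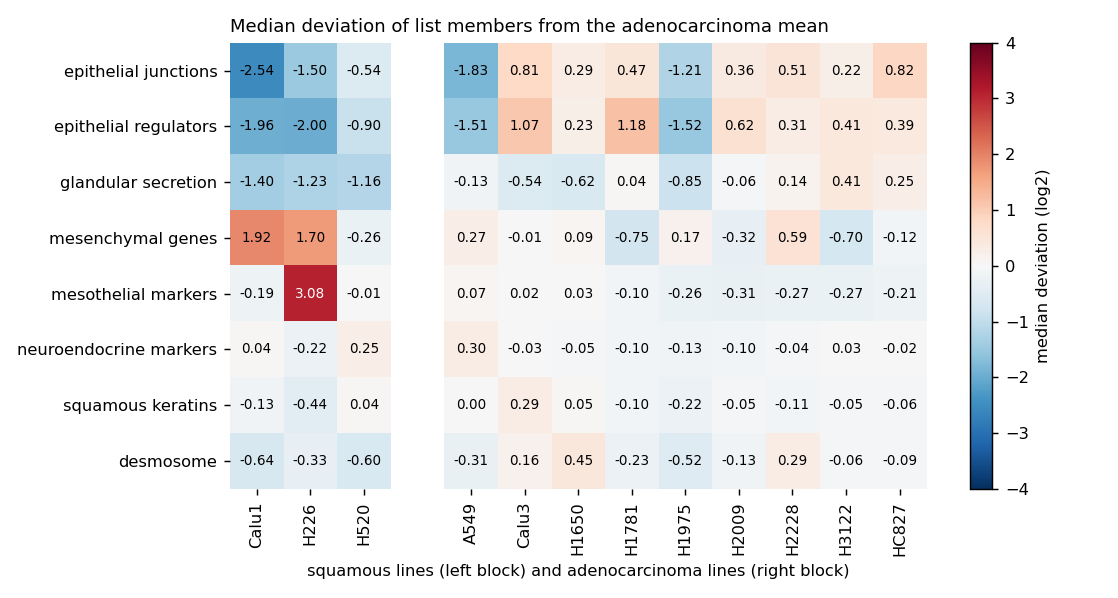
Median deviation (log2) of the members of 8 gene lists from their adenocarcinoma means in each line, with squamous lines in the left block and adenocarcinoma lines in the right block; blue is lower and red higher. Mesenchymal genes reach 1.92 in Calu1 and 1.70 in H226 but -0.26 in H520, and mesothelial markers reach 3.08 in H226 only.

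Other genes of large difference lay outside these lists. Among those past the nominal threshold the largest increases after PTX3 were RGS4 (5.39), a regulator of G protein signalling, CEMIP (5.16), a protein of hyaluronan breakdown, CDH2, CCBE1 (4.57), a factor of lymphatic growth, UCHL1 (4.50), a neuronal ubiquitin hydrolase, and FBN2 (4.07), fibrillin-2. CEMIP had signals of 7.91 in Calu1, 12.88 in H226 and 12.76 in H520, against 4.65 to 7.78 (median 5.47) in adenocarcinoma lines. RGS4 had signals of 9.69 in Calu1, 12.30 in H226 and 6.94 in H520, against 3.50 to 7.25 (median 3.80) in adenocarcinoma lines. CEMIP did not overlap between the groups, though Calu1 was close to H3122, and RGS4 overlapped through H1975. The largest decreases after CDH1 were S100A9 (-5.45), a subunit of calprotectin, AGR2 and ADGRF1 (both -5.01), a protein disulfide isomerase of secretory cells and an adhesion receptor, RAB25, CDH3 and S100A14 (-4.52), a calcium-binding protein. S100A9 had signals of 3.76 in Calu1, 3.43 in H226 and 3.97 in H520, against 4.28 to 13.10 (median 10.18) in adenocarcinoma lines. Calu3, the lowest adenocarcinoma line, was within 1 of the squamous lines.

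Secretory products of glandular cells were lower in part. Of 23 measured genes of glandular secretion, 19 had a lower mean in squamous lines, 4 of them past the nominal threshold (17.4%, against 2.23% of all genes). The median difference was -1.29. AGR2 had signals of 5.63 in Calu1, 4.89 in H226 and 5.79 in H520, against 5.80 to 13.13 (median 11.02) in adenocarcinoma lines. H1650 was at the squamous level, barely above H520, and every other adenocarcinoma line was clearly higher. MUC1, a membrane mucin, had signals of 8.08 in Calu1, 8.13 in H226 and 8.07 in H520, against 7.99 to 12.84 (median 10.61) in adenocarcinoma lines. The squamous values were nearly equal, and A549 was lower still. MUC16, another membrane mucin, differed by -2.25 and TSPAN8, a tetraspanin, by -3.57. SLPI, a secreted antiprotease, was not uniform in squamous lines, with signals of 4.80 in Calu1, 14.16 in H226 and 6.16 in H520, against 8.04 to 13.87 (median 11.17) in adenocarcinoma lines. It was above every adenocarcinoma line in H226 and below every one in Calu1 and H520.

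Alveolar and club cell genes did not differ as a list. Of 21 measured genes, 1 (MUC1) was lower past the nominal threshold (4.76%, against 2.23% of all genes) and 0 were higher. A higher mean was found for 10, and surfactant proteins C and A1 varied little between lines. SFTPC, surfactant protein C, had signals of 6.93 in Calu1, 6.87 in H226 and 7.15 in H520, against 6.82 to 7.21 (median 6.99) in adenocarcinoma lines, and SFTPA1, surfactant protein A1, lay between 3.18 and 4.26 in squamous lines and between 2.98 and 3.78 in adenocarcinoma lines. NAPSA, the protease napsin A that is used with NKX2-1 to recognise adenocarcinoma, had signals of 7.16 in Calu1, 7.15 in H226 and 7.63 in H520, against 6.90 to 10.99 (median 7.22) in adenocarcinoma lines. The one high value was that of HCC827. Of 16 lung lineage factors, 2 were higher past the nominal threshold (ETV5 and PROX1) and 2 lower (ELF3 and FOXA1). Each count is 12.5% of the list, against 1.46% of all genes higher and 2.23% lower. FOXA1, a pioneer factor of lung epithelium, had signals of 3.64 in Calu1, 3.95 in H226 and 8.03 in H520, against 3.59 to 13.00 (median 10.28) in adenocarcinoma lines. PROX1 was high in H520 only, at 8.21, against 3.93 in Calu1 and 3.66 in H226. Simple keratins (6 measured) had 0 genes past the nominal threshold in either direction. KRT7, however, had signals of 13.39 in Calu1, 13.65 in H226 and 4.20 in H520, against 11.61 to 13.07 (median 12.65) in adenocarcinoma lines. Keratin 7 was therefore highest of all in Calu1 and H226 and low in H520.

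Genes of stratified epithelium, which define squamous differentiation, were not higher as lists. Of 15 squamous regulators, 12 had a lower mean in squamous lines, and the median difference was -0.60. Past the nominal threshold 0 were higher and 2 lower (TFAP2C and OVOL1), a share of 13.3%, against 2.23% of all genes. TFAP2C, a transcription factor of early epidermis, had signals of 3.67 in Calu1, 6.42 in H226 and 3.17 in H520, against 6.52 to 9.85 (median 7.20) in adenocarcinoma lines. It was below all of them in each line, by little in H226, and the difference was -3.26 ± 0.81 (limma adjusted p = 0.296). TRIM29, a protein used as a squamous marker, lay at 4.75 in Calu1, 4.75 in H226 and 4.90 in H520, against 3.69 to 8.28 (median 4.57) in adenocarcinoma lines. BNC1, the basal cell factor basonuclin, was high in H226 only (10.93), against 3.58 in Calu1 and 3.51 in H520 and at most 3.92 in adenocarcinoma lines.

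Among 9 squamous keratins, KRT5 alone was higher past the nominal threshold (11.1%, against 1.46% of all genes) and 0 were lower. KRT14, the partner of keratin 5, had signals of 6.53 in Calu1, 5.34 in H226 and 5.87 in H520, against 5.43 to 6.38 (median 5.73) in adenocarcinoma lines. It was not raised in H226, where KRT5 was. Of 12 desmosome genes, 3 were lower past the nominal threshold (DSC2, DSP and PERP), a share of 25%, against 2.23% of all genes. Past it 0 were higher, and the median difference was -0.56. DSC2, a desmosomal cadherin, had signals of 6.54 in Calu1, 4.97 in H226 and 7.74 in H520, against 7.14 to 10.71 (median 10.14) in adenocarcinoma lines. DSP, the plaque protein desmoplakin, had signals of 5.82 in Calu1, 8.38 in H226 and 11.19 in H520, against 9.73 to 12.33 (median 10.71) in adenocarcinoma lines. For DSP the low values were those of Calu1 and H226, and H520 lay in the adenocarcinoma range. DSG3, the desmoglein of basal and spinous layers, lay between 4.29 and 4.65 in squamous lines, and DSC3, its partner cadherin, was at 8.87 in H226, against 3.09 in Calu1 and 3.50 in H520.

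Of 30 genes of the cornified layer, 1 was higher past the nominal threshold (FLG) and 1 lower (S100A9), and 12 had a higher mean. Each of the 2 is 3.33% of the list, against 1.46% of all genes higher and 2.23% lower. FLG, the epidermal protein filaggrin, had signals of 7.88 in Calu1, 3.90 in H226 and 3.28 in H520, against 2.82 to 3.13 (median 3.06) in adenocarcinoma lines. The groups did not overlap, but H520 exceeded the highest adenocarcinoma line by little, and without Calu1 the difference was 0.58. IVL, SPRR3 and TGM1, also of the cornified layer, differed by 0.27, 0.09 and 0.57. Of 9 hemidesmosome genes, LAMB3, a chain of laminin-332, was lower past the nominal threshold (11.1%, against 2.23% of all genes). It had signals of 9.56 in Calu1, 4.33 in H226 and 4.27 in H520, against 5.06 to 11.60 (median 9.62) in adenocarcinoma lines. H226 and H520 lay below every adenocarcinoma line, of which H1781 was the nearest, and Calu1 was near their median.

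**Figure D4:**
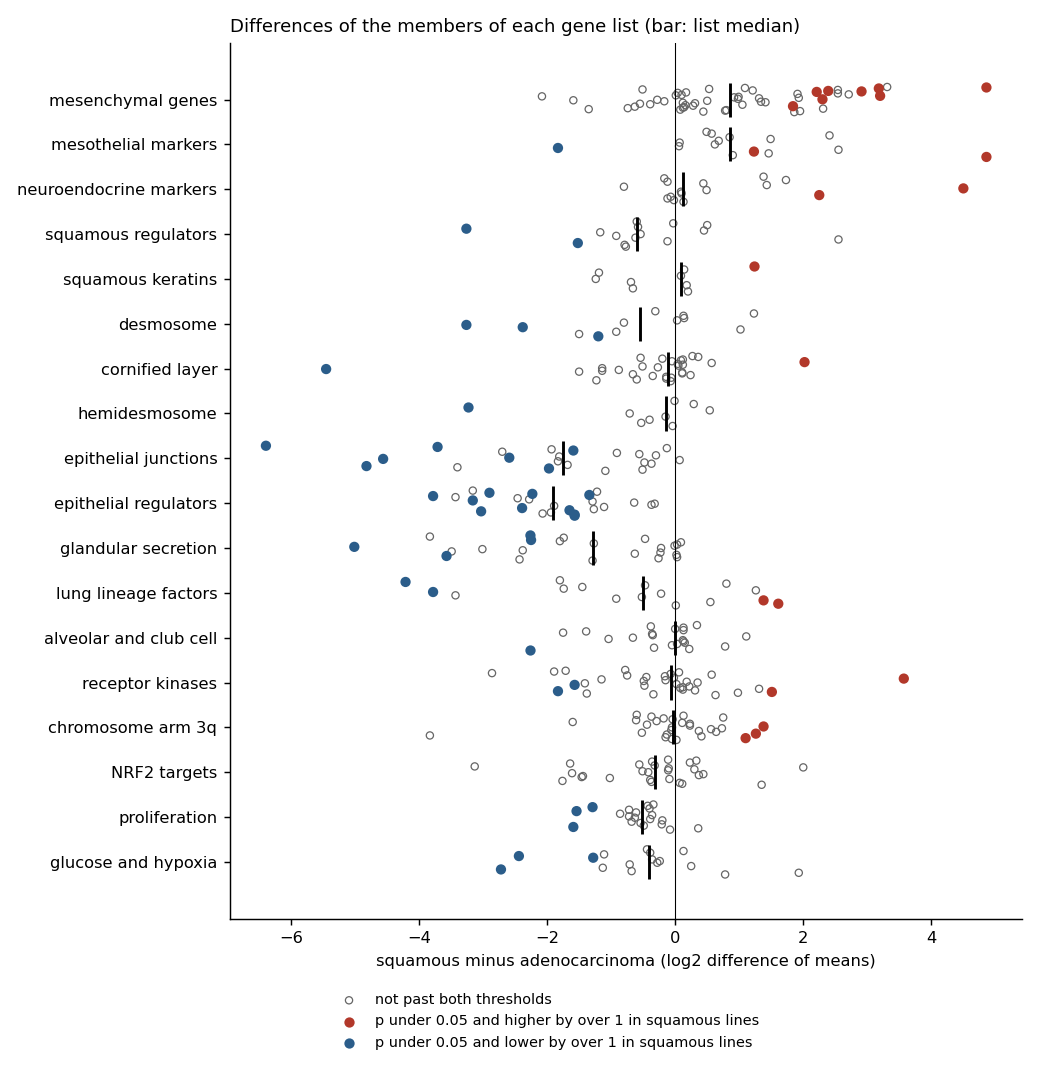
Difference of means (squamous minus adenocarcinoma, log2) of each measured member of 18 gene lists, with members past the nominal threshold in red (higher in squamous lines) or blue (lower) and other members as open circles; black bars are list medians. Epithelial junctions (median -1.74) and epithelial regulators (-1.91) lie to the left of 0, mesenchymal genes (0.86) to the right, and squamous keratins (0.09) around it.

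The squamous lines were also described one by one, as the number of genes beyond the range of all adenocarcinoma lines by more than 1. Calu1 had 212 genes above and 132 below, H226 had 262 above and 147 below, and H520 had 407 above and 373 below. Each adenocarcinoma line against the other 8 had 104 to 285 above (median 157) and 33 to 191 below (median 91). H520 had the highest of these counts in both directions, although a squamous line was set against 9 lines and an adenocarcinoma line against 8. Calu1 and H226 lay within the counts of adenocarcinoma lines.

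In Calu1 the largest excesses over the highest adenocarcinoma line were those of SCG5, a chaperone of neuroendocrine granules, PSG1, a pregnancy-specific glycoprotein, CHI3L1, a secreted chitinase-like protein, GAS6, a ligand of AXL, FLG and CNRIP1, a protein that binds the cannabinoid receptor. SCG5 had signals of 11.47 in Calu1, 5.37 in H226 and 7.40 in H520, against at most 5.70 in adenocarcinoma lines. GAS6 was high in Calu1 (10.84) and H226 (10.49) but not in H520 (5.13), against at most 5.84 in adenocarcinoma lines. AXL, its receptor, was 12.54 in Calu1, 10.85 in H226 and 2.95 in H520, against 3.68 to 10.74 in adenocarcinoma lines, so that ligand and receptor were both highest in Calu1 and H226. The genes farthest below adenocarcinoma lines in Calu1 were MYADM, a membrane protein of myeloid differentiation, at 3.78 against at least 9.56, PRXL2A, a peroxiredoxin-like protein, at 3.82 against at least 8.26, and CBR1, a carbonyl reductase, at 4.69 against at least 8.80.

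H226 carried markers of mesothelium, the lining of the pleura. Of 15 mesothelial markers, 1 exceeded all adenocarcinoma lines in Calu1, 11 in H226 and 2 in H520. Over all genes this was so for 10.8% in Calu1, 9.62% in H226 and 23.3% in H520. WT1, a transcription factor of mesothelium, had signals of 3.11 in Calu1, 10.79 in H226 and 3.65 in H520, against 2.93 to 6.34 (median 3.10) in adenocarcinoma lines. CALB2, which encodes calretinin, had 5.53 in Calu1, 10.59 in H226 and 5.58 in H520, against 5.51 to 8.66 (median 6.22) in adenocarcinoma lines. UPK1B, a uroplakin, stood at 10.69 in H226, PDPN, podoplanin, at 8.35, UPK3B at 9.59 and MSLN, mesothelin, at 8.47, each above every other line of the comparison. KRT5 and CDH2 belong to the same list, which therefore shares the squamous marker that was raised in H226. The part of mesothelial markers in the other values of H226 was not tested. Without H226 the median difference of the list was -0.06, against 0.85 with it. The largest excesses of all genes in H226 were those of NPPB, a natriuretic peptide (12.24, against at most 4.83 in adenocarcinoma lines), BNC1, THBS2, a thrombospondin (11.11), MFAP5, a microfibril protein (10.64), CD200, a surface glycoprotein (9.62), and LAMA1, a laminin chain (10.05).

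H520 stood apart through other genes. CXCL14, a chemokine, had signals of 3.74 in Calu1, 3.87 in H226 and 14.60 in H520, against 3.57 to 4.11 (median 3.74) in adenocarcinoma lines. KCNE3, a potassium channel subunit (11.60), ZNF385B (11.79), FGF3, a fibroblast growth factor (10.88), MAGEA4, a cancer-testis antigen (10.62), and VWA2, a matrix protein (9.85), were also high in H520 only. LDHB, the lactate dehydrogenase B chain, had signals of 13.51 in Calu1, 12.99 in H226 and 3.73 in H520, against 12.49 to 13.82 (median 13.12) in adenocarcinoma lines. S100A11, a calcium-binding protein, stood at 4.55 in H520, against 11.94 in Calu1, 10.92 in H226 and at least 11.75 in adenocarcinoma lines. Of 16 neuroendocrine markers, 1 exceeded all adenocarcinoma lines in Calu1, 2 in H226 and 8 in H520, where 23.3% of all genes did so. INSM1, a neuroendocrine transcription factor, was 8.08 in H520, against 3.50 in Calu1, 3.11 in H226 and at most 3.77 in adenocarcinoma lines, and CHGB, chromogranin B, was 11.77 in H520, against 4.25 in Calu1, 4.54 in H226 and at most 8.95 in adenocarcinoma lines. CHGA, chromogranin A, was not raised, at 4.42 in H520 and between 4.15 and 4.75 in adenocarcinoma lines. Of the same markers, SCG2, a secretogranin, and UCHL1 were higher past the nominal threshold, by 2.25 and 4.50. That is 12.5% of the list, against 1.46% of all genes.

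Differences between pairs of lines, as 1 minus Pearson's r over the 2000 most variable genes, summarise the same picture across genes, which are not independent. Calu1 and H226 were 0.367 apart, while H520 was 0.791 from Calu1 and 0.785 from H226. The 27 pairs of a squamous with an adenocarcinoma line lay between 0.338 and 0.805 (median 0.606), and the 36 adenocarcinoma pairs between 0.300 and 0.656 (median 0.461). The nearest line to Calu1 was H1975 (0.338), as it was for H226 among adenocarcinoma lines (0.472), and the nearest adenocarcinoma line to H520 was H3122 (0.657). Calu1 was thus nearer to an adenocarcinoma line than to either squamous line.

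**Figure D5:**
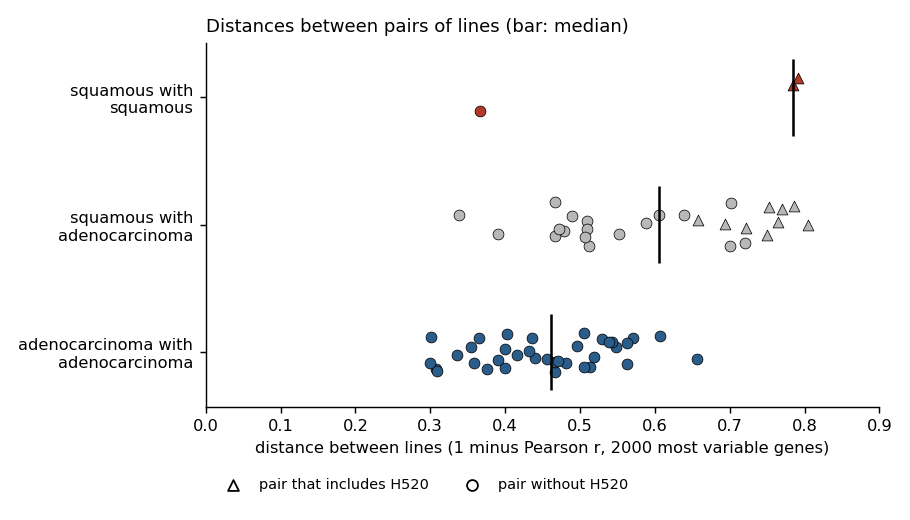
Distance between lines (1 minus Pearson's r over 2000 genes) for the 3 squamous pairs in red at the top, the 27 mixed pairs in grey and the 36 adenocarcinoma pairs in blue, with triangles for pairs that include H520 and black bars for medians. The squamous pair of Calu1 and H226 lies at 0.367, and the pairs of H520 with both lie at 0.785 and 0.791.

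Genes of signalling and growth were compared last. Of 33 receptor kinases and ligands, 2 were higher past the nominal threshold (FGFR1 and DDR2), 2 lower (DDR1 and MST1R), and the median difference was -0.07. Each count is 6.06% of the list, against 1.46% of all genes higher and 2.23% lower. FGFR1, a fibroblast growth factor receptor, had signals of 9.20 in Calu1, 9.89 in H226 and 12.05 in H520, against 4.63 to 9.67 (median 7.10) in adenocarcinoma lines. Only A549 among adenocarcinoma lines exceeded Calu1, and the difference was 3.57 ± 1.0 (limma adjusted p = 0.333). The collagen receptors differed in opposite directions. DDR2 had signals of 4.97 in Calu1, 7.87 in H226 and 4.55 in H520, against 3.92 to 4.46 (median 4.33) in adenocarcinoma lines, and DDR1 had 8.51 in Calu1, 9.35 in H226 and 8.34 in H520, against 8.51 to 12.39 (median 10.58) in adenocarcinoma lines. DDR2 was clearly raised in H226 only, and without H226 its difference was 0.48. EGFR, the epidermal growth factor receptor, was 5.22 in H520, below every adenocarcinoma line, and 10.06 in Calu1 and 10.52 in H226.

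Genes of chromosome arm 3q, often gained in squamous carcinoma, had a median difference of -0.04 over 29 genes. Past the nominal threshold 3 were higher (DVL3, ETV5 and NLGN1), a share of 10.3%, against 1.46% of all genes, and 0 lower. In H520 8 of the 29 exceeded all adenocarcinoma lines, a share near the 23.3% of all genes in that line. NRF2 targets (27 measured) and Notch genes (19 measured) had 0 genes past the nominal threshold in either direction, with medians of -0.32 and -0.02. The median of NRF2 targets was 0.31 with the radiation covariate and 0.06 without H2228, and that of 3q genes turned to 0.26 without Calu1 and 0.27 without H226. In the list of G1 regulators (14 measured) CCNE1, cyclin E1, was lower past the nominal threshold (7.14%, against 2.23% of all genes), by -1.94. Genes of antigen presentation (20 measured) had 1 lower past it (5%, against 2.23% of all genes), TAP2, a peptide transporter, by -1.36. Their median deviation was 0.94 in Calu1, 0.19 in H226 and -1.62 in H520, against -1.23 to 1.11 in adenocarcinoma lines.

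Proliferation genes had a lower mean in 19 of 20 cases, where 48.7% of all genes did. Past the nominal threshold 3 were lower (15%, against 2.23% of all genes), and 0 with the radiation covariate. The median difference was -0.51. Their median deviation was -0.53 in Calu1, -0.52 in H226 and -0.41 in H520, and H1781 (-0.70) and HCC827 (-0.55) were lower still. PCNA, the sliding clamp of DNA replication, had signals of 10.70 in Calu1, 11.12 in H226 and 10.14 in H520, against 11.11 to 13.05 (median 11.91) in adenocarcinoma lines. RRM2, a subunit of ribonucleotide reductase, differed by -1.59 and MCM4, of the replicative helicase, by -1.54, while MKI67, the proliferation antigen, differed by -0.34. The 3 genes past the nominal threshold all act in DNA replication. Of 16 genes of glucose use and hypoxia, 3 were lower past the nominal threshold (18.8%, against 2.23% of all genes). With the radiation covariate 1 was lower past it, as was 1 with the mean of the probe sets of a gene. PFKFB3, which makes the activator of phosphofructokinase, had signals of 7.08 in Calu1, 8.10 in H226 and 8.06 in H520, against 8.99 to 11.67 (median 10.20) in adenocarcinoma lines. The groups did not overlap, and the difference was -2.44 ± 0.54 (limma adjusted p = 0.243). EGLN3, an oxygen sensor induced by hypoxia, differed by -2.72 and PFKFB4 by -1.28.

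Radiation class could be separated from histology only in adenocarcinoma lines. All 3 squamous lines were radiosensitive, so the covariate fit compared them with the 3 radiosensitive adenocarcinoma lines alone. The spread was still taken over all 12 lines. With the class as a covariate, the difference was 4.23 for CDH2, -7.23 for CDH1, 6.22 for PTX3, -2.61 for RPP25, -3.92 for TMC5, -2.66 for FRK and -3.38 for RIPK4, each with an unadjusted limma p under 0.05. For S100A9 it was -3.70, for DSP -1.68, for PCNA -0.86 and for KRT5 1.25, values that no longer passed the nominal threshold. Of 105 described genes past that threshold, 31 did not pass it with the covariate. How far these losses came from the smaller comparison or from radiation class was not tested. Leaving out a squamous line likewise mattered, as 30 of the 105 no longer passed without Calu1, 30 without H226 and 24 without H520, and 55 passed in all 12 fits that left out a line. The 7 genes shared by the squamous lines were among those 55. They were chosen from the same values for lying beyond every adenocarcinoma line. Passing in these fits, like their p with the covariate, is therefore no separate support.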

How the data were processed

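RNA of 15 untreated NSCLC lines was hybridised to 1 Affymetrix PrimeView array per line. The values used are log2 signals per probe set that the authors deposited after RMA (affy 1.64.0 per the submitters' processing notes), a procedure that subtracts background, forces all arrays to 1 common distribution and condenses probes into probe sets. RMA makes overall shifts between lines invisible. The labels describe biotin-labelled cRNA on the one-colour Affymetrix array, whereas the study's methods mention Cy3 and Cy5 dyes and a reference RNA. The deposited values have the range of single-channel signals and were treated as such.

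Of 49293 non-control probe sets, 44988 carried 1 gene in the platform annotation, 1832 several and 2473 none. For each of 18132 genes the single-gene probe set of highest mean over the 15 lines was used (11734 genes had several). Squamous minus adenocarcinoma was fitted with limma 3.58.1 (lmFit and eBayes, R 4.3.3) on 12 lines without covariates, with Benjamini-Hochberg adjustment over all genes. Other steps used Python 3.11.15, numpy 2.4.6, pandas 2.3.3 and scipy 1.17.1, and figures matplotlib 3.10.9. The scripts were tested on simulated data. Precision is limited by the number of arrays. Scan or hybridisation batches were not given in the sources used here.

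The members and the 23 gene lists (440 genes measured) were chosen with earlier results of these data known. Named genes were the markers, up to 6 genes per list with its defining genes and those of lowest p, the 15 genes with the largest difference in each direction past the nominal threshold, those of lowest p, and the 6 leading genes of each squamous line. FAM184B was named after its value was seen, as the only gene that the methods' t-test called. Alternatives comprised other moderation and tests, array weights, other sets of lines, a radiation covariate, centring, a filter on dim genes, the mean over probe sets, the series matrix values and leaving out each line. Promoter windows were those of RefSeq on GRCh38.p14.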

Additional observations from a re-analysis of the deposited data

Results flagged for a closer look

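Among 123 described genes, 15 had an adenocarcinoma line whose gap to the next line exceeded the critical share of the group's range in Dixon's test for 9 values. Chance alone flags about 1 group in 20. The squamous group, with 3 lines, was too small for this test.

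A549 and H1975 accounted for 7 of the 15. In A549 the signal was the lowest of the adenocarcinoma lines for EPCAM (8.51, with the next line at 10.95), GALNT3 (4.59, next 7.86) and CRYBG1 (5.85, next 9.89). In H1975 it was the lowest for ELF3 (7.77, next 10.00) and SPINT2 (10.46, next 11.98) and the highest for RGS4 (7.25, next 5.03) and CHI3L1 (5.43, next 3.82). For each of these genes the value that stood apart lay on the side of the squamous mean.

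H1650 was highest for PTX3 (7.68, next 5.43) and TNNT1, a troponin (11.39, next 10.18). H2228 was highest for COL1A1 (8.38, next 5.93) and POSTN (4.86, next 4.11). H3122 was highest for PROX1 (4.17, next 3.71) and lowest for RRAGC, a GTPase of nutrient sensing (7.56, next 8.56). Calu3 was highest for GPRC5B, an orphan receptor (12.04, next 8.17), and H1781 for OVOL2 (9.28, next 7.56).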

How the results depend on the processing

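The gene tests and list medians were recomputed under 24 alternatives, and the counts of genes beyond or outside the adenocarcinoma range under some of them. Distances and promoter matches were not recomputed. Genes with an adjusted p under 0.05 numbered 15 higher and 5 lower with array weights, 6 higher and 10 lower with the bronchioloalveolar lines as adenocarcinoma, 1 higher (RRAGC) without H1781 and H3122, 2 higher and 1 lower (CDH2, PTX3 and RPP25) without dim genes, and 1 higher with the methods' t-test. Leaving out a line gave 0 to 27 higher and 0 to 8 lower, with 30 in all without H520, 18 without Calu1, 17 without H226 and at most 3 without any adenocarcinoma line. Trend and robust moderation, all 15 lines in the fit, the radiation covariate, centring, the mean of probe sets and the series matrix values called 0. So did the permutation form of the t-test, whose smallest possible p left it little room to call any. At the nominal threshold, the percent of higher genes was 1.25 to 2.32 with a line left out, against 1.46 with all, and its highest values came without H520 (2.32), H226 (2.24) and Calu1 (2.2). Genes without overlap, squamous above, numbered 250 without H1781 and H3122, 69 without dim genes, and 160 to 706 with a line left out. Those with squamous below numbered 233 without H1781 and H3122 and 165 to 595 with a line left out, where groups of fewer lines overlap less often by construction. With the mean of probe sets, 79 genes lay below the adenocarcinoma range by over 1 in Calu1, 248 in H520 and 2 in all squamous lines.

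The sign of SOX2 turned without H1781 and H3122 (0.41) and with the mean of probe sets (0.28), and ranged from -3.49 to 0.88 with a line left out. Ranges with a line left out also crossed 0 for FGF3 (-0.27 to 3.19), KCNE3 (-0.05 to 3.94), KRT7 (-3.69 to 1.03), LDHB (-4.86 to 0.03), MAGEA4 (-0.00 to 3.16), VWA2 (-0.40 to 2.90), the median of simple keratins (-1.06 to 0.12), all without H520, and the median of mesothelial markers (-0.06 to 1.46), without H226. Medians of lists near 0 also changed sign with a line left out: squamous keratins (-0.17 to 0.19), hemidesmosome (-0.79 to 0.14), neuroendocrine (-0.14 to 0.15), 3q (-0.30 to 0.30), NRF2 targets (-0.45 to 0.06), receptor kinases (-0.37 to 0.08), G1 regulators (-0.10 to 0.43), antigen presentation (-0.57 to 0.64), and, within 0.2 of 0 throughout, Notch, alveolar and blood and endothelial genes. With the radiation covariate the median was 0.31 for NRF2 targets, -0.08 for squamous keratins and 0.05 for the cornified layer. It was 0.25 for hemidesmosome genes with array weights, -0.66 for squamous keratins without dim genes, and -0.15 for antigen presentation without H1781 and H3122. The medians of epithelial junctions, epithelial regulators, glandular secretion, mesenchymal genes, squamous regulators, desmosome, lung lineage factors, proliferation and glucose use kept their sign under all 24 alternatives. The cause was not tested. Several of the alternatives could not turn a sign, since they left the differences of means as they were. They were trend and robust moderation, the fit with all lines of the series, the series matrix values and both forms of the t-test. Of 105 described genes past the nominal threshold, 0 changed sign, with the same limit, and 47 still passed the threshold under every alternative.

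No paired analysis was possible because the replicate numbers only name lines. With 3 squamous lines of different make-up and 1 array each, differences between lines and between cultures cannot be told apart.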

Other observations

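The 3 lines left out of the comparison were measured on the same arrays. CDH1 had a signal of 10.81 in H1437 and 12.51 in H358, the bronchioloalveolar lines, and 3.38 in H460, the large cell line. CDH2 had 5.94 in H1437, 7.70 in H358 and 5.98 in H460, and PTX3 had 2.99, 4.07 and 4.75 in the same order. H460 was therefore low in both cadherins, a combination that none of the 12 compared lines had, since CDH1 was at least 8.10 in every line with CDH2 at or below 8.23.

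RPP25 was 9.78 in H1437, 7.57 in H358 and 7.68 in H460, all among or above the adenocarcinoma lines. TMC5 was 9.54 in H1437 and 7.71 in H358, and 5.38 in H460, near the squamous lines. RIPK4 was 7.65 in H1437, 9.22 in H358 and 6.85 in H460.

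NKX2-1 was 10.85 in H358, 4.15 in H1437 and 3.65 in H460, and SOX2 was 10.01, 4.33 and 3.66 in the same lines. KRT5 lay between 5.48 and 5.62 in all 3. VIM spanned 3.47 in H1437, 11.00 in H358 and 13.50 in H460.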
